A study of Mus musculus with 36 samples.

Results

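The urea cycle genes described here are 6 genes that encode enzymes and the ornithine carrier of hepatic urea synthesis, namely *Cps1*, *Otc*, *Ass1*, *Asl*, *Nags* and *Slc25a15*. They were taken by gene symbol from a gene-level count table of 54347 genes, and all 6 were among the 15340 genes that passed the filter on low counts and were tested. The study exposed primary cells of male mice labelled C57Bl/6 to PBS (control), β-hydroxybutyrate (βOHB, bOHB in the labels) or butyrate, each compound at 5 mM for 6 h. The 4 cell types were hepatocytes, macrophages, adipocytes and skeletal myotubes, and each of the 12 groups had 3 libraries, which gave 36 in all. Whether replicates came from separate mice or only from separate wells is not stated, so p-values measure the spread between these libraries.

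The groups carry no genetic change, and each of them has limits as a model. Hepatocytes came from collagenase-perfused livers of C57BL/6NHsd males, were attached in medium with dexamethasone, rested overnight without it and were treated in Williams E medium. Glucocorticoid is a known inducer of urea cycle genes, so its withdrawal is shared by all 9 hepatocyte libraries. Macrophages were grown from bone marrow in L929-conditioned medium, adipocytes from the stromal vascular fraction of pooled inguinal fat, and myotubes from hindlimb myoblasts. Cell types therefore differ in source and medium as well as in identity.

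The urea cycle disposes of ammonia from amino acid breakdown. In liver mitochondria *Nags* makes N-acetylglutamate, the obligatory activator of *Cps1*, which condenses ammonia and bicarbonate to carbamoyl phosphate. *Slc25a15* carries ornithine into mitochondria and citrulline out, and *Otc* joins ornithine and carbamoyl phosphate to citrulline. In the cytosol *Ass1* and *Asl* turn citrulline and aspartate into arginine, which is then split into urea and ornithine. Cells without a full cycle use parts of it, as when macrophages recycle citrulline to arginine through *Ass1* and *Asl*. βOHB, a ketone body, is released by the liver in fasting, whereas butyrate comes largely from gut bacteria and is known to inhibit histone deacetylases. βOHB is butyrate with a hydroxyl group on its β carbon.

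The promoters of the 3 genes with the clearest hepatocyte responses, *Slc25a15*, *Nags* and *Otc*, are shown so that the windows of the gene that rose and the 2 that fell can be set side by side. Each is the 250 bases before the RefSeq transcription start (GRCm38.p6), given 5′ to 3′ on the strand of the gene, with the GC-box letters GGGCGG or their reverse complement CCGCCC in capitals.
Slc25a15 (chr8:22398622-22398871, minus strand): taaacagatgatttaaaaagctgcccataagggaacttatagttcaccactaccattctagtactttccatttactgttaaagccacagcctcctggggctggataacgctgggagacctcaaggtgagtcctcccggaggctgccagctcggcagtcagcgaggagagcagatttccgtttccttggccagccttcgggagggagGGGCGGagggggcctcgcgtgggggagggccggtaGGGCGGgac
Nags (chr11:102145263-102145512, plus strand): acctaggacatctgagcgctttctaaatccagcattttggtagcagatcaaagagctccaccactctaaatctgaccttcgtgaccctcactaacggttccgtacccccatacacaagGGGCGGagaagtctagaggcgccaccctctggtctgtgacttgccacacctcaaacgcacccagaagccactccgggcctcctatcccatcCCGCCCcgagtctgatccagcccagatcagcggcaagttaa
Otc (chrX:10252055-10252304, plus strand): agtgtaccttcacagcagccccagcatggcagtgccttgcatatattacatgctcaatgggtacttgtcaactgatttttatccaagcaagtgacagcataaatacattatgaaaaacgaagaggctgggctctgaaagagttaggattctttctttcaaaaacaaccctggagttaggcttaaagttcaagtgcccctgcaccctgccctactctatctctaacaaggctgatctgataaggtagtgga
The *Slc25a15* and *Nags* windows each held 2 GC-box matches on either strand and 11 CG dinucleotides. The *Otc* window held 0 GC-box matches and 1 CG dinucleotide. Of 32851 RefSeq promoter windows of the same length, 32.7% held a GC box on either strand, 35.6% had 11 or more CG dinucleotides, and 92.1% had at least 1. *Slc25a15*, which rose under butyrate, and *Nags*, which fell in the same cells, thus had the same number of GC-box letters in these windows. TATAAA, searched on both strands and held by 12.4% of all windows, and the palindrome CACGTG, held by 6.02%, had 0 matches in the 3 windows printed. RefSeq windows were also found for *Ass1*, with 1 GC box, 1 CACGTG and 23 CG dinucleotides, and for an alternative start of *Slc25a15*, with 5 GC boxes, 1 CACGTG and 43 CG dinucleotides. The genes *Cps1* and *Asl* were not matched.

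Levels are given as CPM, a gene's count scaled to a common library size after TMM normalization. Library totals ran from 18366289 to 23221473 estimated counts, with a median of 22177562. Hepatocyte libraries carried *Alb* at 28020 ± 1031 CPM (SD, n = 3) in controls, macrophages *Csf1r* at 1433 ± 33.0, adipocytes *Adipoq* at 754.5 ± 80.2 and myotubes *Acta1* at 7904 ± 878, so the defining marker of each labelled cell type was present. Markers of other cells were present as well. The summed fibroblast markers (5 of 5 measured) reached 2330 to 2451 CPM in control macrophages, and the hepatocyte markers (6 measured) reached 44.8 to 799 CPM in the myotube libraries under butyrate, against 0.396 to 1.36 in myotube controls. The third myotube library under βOHB had 33.3. These myotube values touch *Cps1* above all and are given beside it. In bulk RNA fewer cells of a type and less RNA per cell cannot be told apart.

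Under butyrate, *Slc25a15*, *Nags* and *Otc* were called in hepatocytes. They are of the mitochondrial side of the cycle, as is *Cps1*, which was not called, and the mitochondrial and cytosolic sides were not tested against each other. *Slc25a15* rose 1.93-fold, and *Nags* and *Otc* fell to 0.667 and 0.720 of the control level. *Ass1* and *Asl* differed by at most 0.12 on the log2 scale and did not pass the test, nor did *Cps1*. Thus 1 of 6 genes was raised and 2 lowered at an adjusted p below 0.05 (edgeR's quasi-likelihood test, adjusted by Benjamini-Hochberg across the 15340 genes). Of all these genes 63.5% passed in this comparison, 31% up and 32.4% down, so 3 of 6 was no larger a share than the background. The median log2 fold change of the 6 genes was 0.07, against -0.01 over all tested genes.

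**Figure D1:**
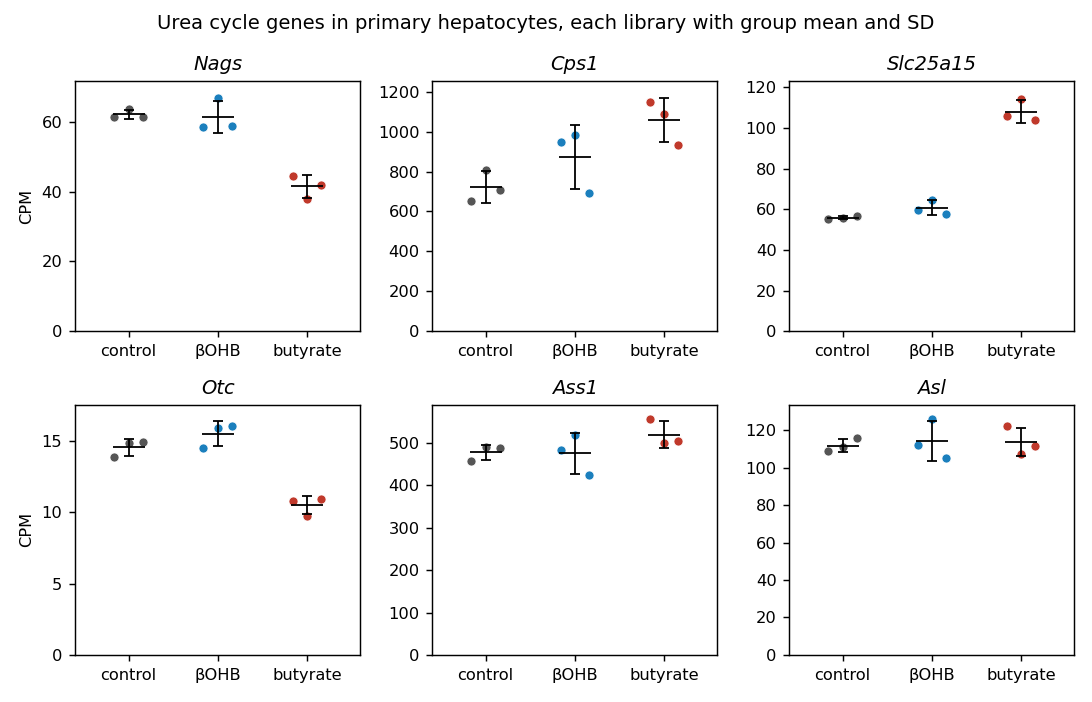
CPM of the 6 urea cycle genes (y axis from 0, one panel per gene) in the 9 hepatocyte libraries by treatment; points are libraries and bars the group mean ± SD (n = 3). *Nags* and *Otc* under butyrate lie below all control and βOHB libraries, *Slc25a15* lies above them, and *Asl* overlaps between all groups.

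*Nags* lies on chromosome 11 (GRCm38, chr11:102145513-102149477, plus strand). It was at 61.4, 63.7 and 61.5 CPM in the control hepatocytes and at 44.6, 37.9 and 42.0 CPM under butyrate. No butyrate library reached the lowest control, and the log2 fold change was -0.58 ± 0.11 (SE, adjusted p = 4.61e-05 by edgeR). The span of the annotated antisense gene *Gm11586* overlaps that of *Nags* by 698 bases, introns included. Since strand-specific counting is not stated, reads from that stretch cannot be told apart. *Cps1* (chr1:67123026-67231259, plus strand), the enzyme that *Nags* serves, was at 654, 808 and 705 CPM in controls and at 1149, 1089 and 936 CPM under butyrate. Its libraries did not overlap either, but in the opposite direction, and its log2 difference was 0.55 ± 0.34 (SE, adjusted p = 0.164 by edgeR). That verdict depended on the fit: the adjusted p was 0.000255 when only hepatocyte libraries entered the model, 0.00803 with limma-voom and 0.676 with DESeq2, and the 15 alternatives ran from 6.47e-08 to 0.676 with log2 differences between 0.48 and 0.64.

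*Slc25a15* (chr8:22375551-22398597, minus strand), the ornithine and citrulline carrier, had the lowest adjusted p of the 6 genes. It was at 55.3, 55.5 and 56.9 CPM in controls and at 106, 114 and 104 CPM under butyrate. The log2 fold change was 0.95 ± 0.06 (SE, adjusted p = 7.70e-15 by edgeR). *Otc* (chrX:10252305-10321024, plus strand), whose substrate this carrier delivers, was at 13.9, 14.9 and 15.0 CPM in controls and at 10.8, 9.76 and 10.9 CPM under butyrate. Its log2 fold change was -0.47 ± 0.16 (SE, adjusted p = 0.0168 by edgeR). The carrier and the enzyme that uses its cargo thus moved apart. The call of *Otc* was lost without the second butyrate library (adjusted p = 0.0707) and without the third control library (adjusted p = 0.0520), both by edgeR.

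Neither cytosolic enzyme passed the test under butyrate. *Ass1* (chr2:31470207-31520672, plus strand) was at 458, 490 and 488 CPM in controls and at 556, 500 and 505 CPM under butyrate. The libraries did not overlap, yet the log2 difference was 0.12 with a 95% interval from -0.17 to 0.41 and an adjusted p of 0.476 (edgeR). *Asl* (chr5:130011258-130029247, minus strand) had a mean of 112 ± 3.5 CPM in controls and 114 ± 7.6 under butyrate (SD, n = 3), and the interval of its log2 difference ran from -0.11 to 0.16. Across all 15340 genes, 33% had 3 butyrate libraries above all controls and 35.5% had them below. Of the 6 urea cycle genes 3 and 2 did, and *Cps1* and *Ass1* were the 2 of these that were not called.

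Markers of other cells moved in the same hepatocyte libraries. The 5 endothelial markers, all measured and none at 0, summed to 80.8 to 95.8 CPM in controls and 27.8 to 33.2 CPM under butyrate, and the 4 Kupffer cell markers to 4.30 to 5.46 and 1.83 to 2.58 CPM. All 5 endothelial and all 4 Kupffer cell markers had lower means under butyrate. Of the 8 macrophage markers 6 also had lower means, such as *Csf1r* at 1.66 and 0.927 CPM and *C1qa* at 2.14 and 1.24 CPM. Their sum, 94.8 to 117.5 CPM in controls and 115.7 to 138.1 under butyrate, was carried by the other 2, *Cd68* at means of 94.2 and 102.3 CPM and *Mertk* at 3.97 and 16.9 CPM. The 6 adipocyte markers summed to 17.2 to 19.9 CPM in controls and 58.0 to 60.2 under butyrate, with 3 means higher and 2 lower. The 3 stellate cell markers summed to 11.2 to 19.6 and 20.4 to 24.0 CPM, with 2 means higher and 1 lower. For the 6 myotube markers the sums were 27.0 to 27.2 and 42.8 to 47.7 CPM, yet 5 means were lower and only 1 higher. The part of all these markers in the *Slc25a15*, *Nags* and *Otc* results was not tested.

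βOHB changed 0 of the 6 genes in hepatocytes by edgeR, against 0.00652% of all tested genes, and 0 of the 6 had an unadjusted p below 0.05. DESeq2 and limma-voom also called 0 of the 6, in hepatocytes and in each of the other cell types. *Slc25a15* came closest, at 59.9, 64.8 and 57.7 CPM under βOHB, all above its controls, which 3.12% of tested genes also showed. Its log2 difference was 0.12 ± 0.06 (SE, adjusted p = 0.902 by edgeR). *Nags* was at 58.7, 66.9 and 58.8 CPM and *Otc* at 14.5, 16.0 and 16.1 CPM, both overlapping their controls. The 95% intervals of the log2 differences under βOHB were -0.24 to 0.21 for *Nags*, -0.25 to 0.43 for *Otc*, -0.000896 to 0.24 for *Slc25a15*, -0.30 to 0.28 for *Ass1* and -0.10 to 0.17 for *Asl*. They were wider for *Cps1*, from -0.42 to 0.97, and its 3 βOHB libraries were at 949, 985 and 691 CPM. The spread that sets these intervals was estimated for each gene over the libraries of all cell types. These included the myotube libraries under butyrate, with *Cps1* at 0.651, 15.7 and 2.59 CPM.

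Butyrate and βOHB were compared directly at the same dose and time, as 6 genes in 4 cell types, or 24 pairs. In hepatocytes *Slc25a15* was higher under butyrate by 0.83 ± 0.06 on the log2 scale (SE, adjusted p = 1.57e-13 by edgeR). *Nags* was lower by 0.57 ± 0.11 (log2 difference -0.57, adjusted p = 6.60e-05) and *Otc* by 0.56 ± 0.16 (log2 difference -0.56, adjusted p = 0.00523), all by edgeR. The 3 other genes did not pass, and their intervals were -0.42 to 0.97 for *Cps1*, -0.16 to 0.42 for *Ass1* and -0.14 to 0.12 for *Asl*. In a model of the hepatocyte libraries alone, *Cps1* and *Ass1* were called as well, which made 5 of 6. The model over all 36 libraries called 63.5% of all genes in this comparison, too, and the share called by the hepatocyte model is not given. At the stricter limit of an unadjusted P below 0.001, *Nags* and *Slc25a15* passed in hepatocytes, both against control (49.3% of all genes) and against βOHB (49.2%). Over the 4 cell types 15 of 24 pairs were called, against 63.4% over all tested genes and cell types, so the share was near the background. Each of the 15 stayed called when p-values were adjusted over the 4 cell types of each gene. The comparisons with control share their control libraries, so the direct contrast is the test of the compounds' difference.

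**Figure D2:**
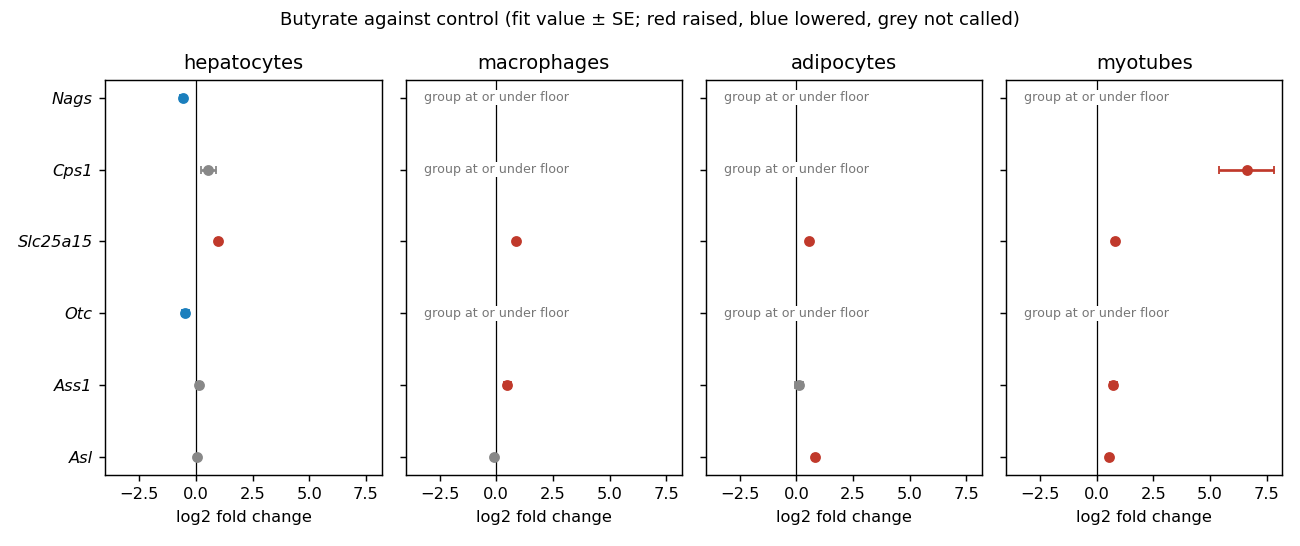
Log2 fold change under butyrate against control for the 6 genes in each cell type, as the fitted value ± SE from the model over all 36 libraries; red points were raised, blue points lowered and grey points not called. Entries with a group of 3 or fewer counts are not drawn, among them *Nags* outside hepatocytes, which was raised in all 3 of those cell types.

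Macrophages had *Cps1*, *Otc* and *Nags* at or near 0 and expressed the citrulline-to-arginine arm, of which *Ass1* rose under butyrate. *Ass1* was at 30.3, 32.2 and 28.5 CPM in control macrophages and at 39.7, 44.2 and 42.7 CPM under butyrate. The groups did not overlap, and the log2 fold change was 0.48 ± 0.16 (SE, adjusted p = 0.00852 by edgeR). *Asl*, the next enzyme, was at 34.1, 37.9 and 36.9 CPM in controls and at 33.7, 33.1 and 35.6 under butyrate, and its log2 difference of -0.09 had an interval from -0.23 to 0.05. Against βOHB, where *Asl* was at 39.5, 36.9 and 39.1 CPM, it was lower under butyrate (log2 difference -0.17 ± 0.07, SE, adjusted p = 0.0284 by edgeR). This call was lost without any 1 of 4 libraries (adjusted p from 0.0721 to 0.142), and with scaling by library totals alone, which moved the median of all genes by 0.208 in this comparison, the difference turned to 0.05 (adjusted p = 0.525).

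*Slc25a15* rose in macrophages as it did in hepatocytes, from 9.88, 9.12 and 9.39 CPM to 17.1, 17.6 and 18.1 CPM (log2 fold change 0.89 ± 0.07, SE, adjusted p = 2.34e-12 by edgeR). *Nags* had 0 counts in all 3 control and all 3 βOHB libraries and 13, 18 and 8 counts under butyrate, or 0.565, 0.702 and 0.338 CPM. Set against 3 counts over the control group, it was at least 11.9-fold higher (adjusted p = 1.99e-06 by edgeR). *Otc* and *Cps1* were at 0 to 2 counts in each macrophage library. In all, 3 of 6 genes were raised and 0 lowered under butyrate in macrophages, where 65% of all tested genes were called, 31.9% up and 33.2% down. At an unadjusted P below 0.001, *Nags* and *Slc25a15* passed against control (49.7% of all genes) and against βOHB (49.4%). The 8 summed macrophage markers were at 17030 to 17210 CPM in controls and 10700 to 11240 CPM under butyrate, and all 8 had lower means. The 3 markers of proliferating cells went from 1306 to 1342 CPM in controls to 508.6 to 607.1 under butyrate. The 6 myotube markers, none at 0, went from 6.95 to 13.7 CPM to 20.5 to 58.3 CPM, and all 6 had higher means. The 5 fibroblast markers went from 2330 to 2451 CPM in controls to 1615 to 2250 under butyrate, with 4 means lower and 1 higher. The part of these in the results was not tested. βOHB changed 0 of 6 genes in macrophages by edgeR, where 0% of all genes were called and 358 genes had an unadjusted p below 0.05, 0 of them urea cycle genes. The intervals of the log2 differences were -0.37 to 0.29 for *Ass1*, -0.06 to 0.23 for *Asl* and -0.15 to 0.16 for *Slc25a15*, and *Nags*, *Cps1* and *Otc* had at most 1 count in any of these 6 libraries.

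The arginine transporters and competing enzymes of macrophages moved in both directions under butyrate. *Slc7a1*, a cationic amino acid importer, fell from 71.7 ± 1.1 to 49.3 ± 2.5 CPM (SD, n = 3; log2 fold change -0.54 ± 0.07, SE, adjusted p = 5.12e-08 by edgeR). *Slc7a2*, the importer linked to macrophage activation, was at 17.7 ± 1.3 and 19.5 ± 2.6 CPM and did not pass (adjusted p = 0.339 by edgeR). *Odc1*, which makes putrescine from ornithine, rose from 77.4 ± 2.5 to 121 ± 5.9 CPM (log2 fold change 0.64 ± 0.07, SE, adjusted p = 1.34e-09). *Nos2*, which makes nitric oxide and citrulline from arginine, was at 0 in all 3 controls and at a mean of 0.151 CPM under butyrate, at least 3.35-fold higher against 3 counts over the group (adjusted p = 0.00989 by edgeR). Against βOHB, *Slc7a1* was lower (adjusted p = 6.30e-08) and *Odc1* higher (adjusted p = 1.22e-09), and *Nos2* did not pass (adjusted p = 0.172), all by edgeR. Of the 7 tested genes of alternative and classical macrophage activation, 2 rose and 3 fell, with a median log2 fold change of -0.28 against 0 over all tested genes, of which 31.9% rose and 33.2% fell. *Tnf* had the largest fall, from 5.24 to 2.89 CPM.

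Adipocytes raised 3 of the 6 genes under butyrate and lowered 0, where 61% of all genes were called, 30.7% up and 30.3% down. *Asl* rose from 13.8, 13.7 and 14.4 CPM to 22.8, 26.0 and 25.2 CPM (log2 fold change 0.82 ± 0.08, SE, adjusted p = 9.40e-11 by edgeR). *Ass1*, its partner, was at 17.3, 17.7 and 19.7 CPM and at 20.0, 20.5 and 18.5 CPM, overlapping groups with an interval of -0.24 to 0.46. Macrophages thus raised *Ass1* with no call for *Asl*, and adipocytes raised *Asl* with no call for *Ass1*. The difference between these responses was called for *Asl* (adjusted p = 3.01e-08) and not for *Ass1* (adjusted p = 0.227), both by edgeR. *Slc25a15* rose from 15.9, 14.8 and 15.7 CPM to 22.4, 23.8 and 22.1 CPM, a log2 fold change of 0.56 ± 0.07 (SE, adjusted p = 1.45e-08). In the same libraries the 5 endothelial markers, none at 0, summed to 176.4 to 201.9 CPM in controls and 117 to 134.6 under butyrate, and the 6 adipocyte markers to 8595 to 9318 and 6722 to 8121 CPM. Their part in the results was not tested.

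*Nags* went from 1, 1 and 0 counts to 18, 24 and 29 counts, a ratio of 37.2 with an exact 95% counting interval from 9.92 to 313 (adjusted p = 4.12e-08 by edgeR). Under βOHB 0 of the 6 genes passed in adipocytes by edgeR, as did 0.00652% of all genes. Of 1097 genes with an unadjusted p below 0.05 in that comparison 0 were urea cycle genes. The intervals of the log2 differences were -0.33 to 0.37 for *Ass1*, -0.17 to 0.16 for *Asl* and -0.23 to 0.05 for *Slc25a15*, and *Nags* had 3, 0 and 1 counts under βOHB. *Cps1* had 1 count in the 9 adipocyte libraries together and *Otc* had 0.

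**Figure D3:**
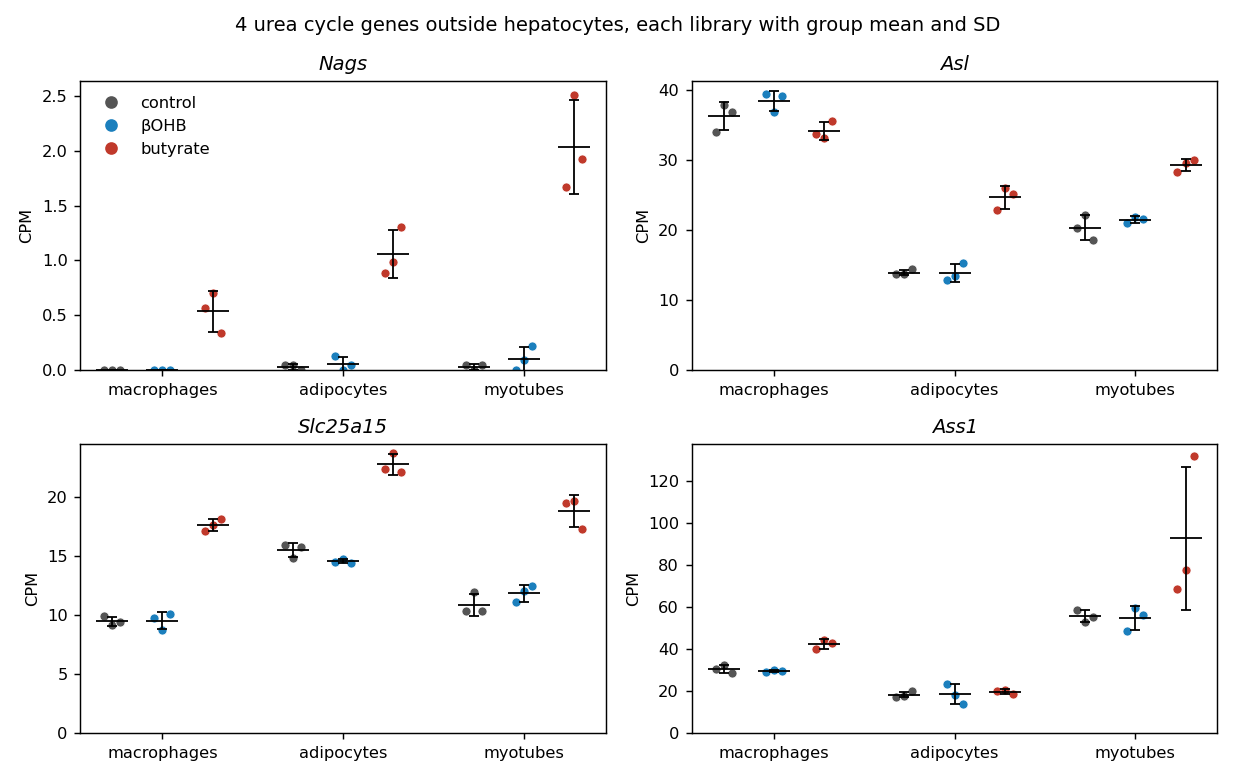
CPM (y axis from 0) of *Nags*, *Asl*, *Slc25a15* and *Ass1* in each library of macrophages, adipocytes and myotubes under control, βOHB and butyrate, with the group mean ± SD (n = 3). The butyrate libraries lie above the control libraries except for *Asl* in macrophages and *Ass1* in adipocytes, and 1 myotube library under butyrate stands at 132 CPM of *Ass1*.

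In the myotube libraries 5 of the 6 genes were called higher under butyrate and 0 lower, where 66.5% of all genes were called, 33.1% up and 33.4% down. One of the 5 was *Cps1*, whose counts followed those of the hepatocyte gene *Alb*. *Nags* went from 1, 0 and 1 counts to 41, 62 and 43 counts, a ratio of 68.5 with an exact 95% counting interval from 18.6 to 571 (adjusted p = 9.27e-11 by edgeR). *Slc25a15* rose from 10.3, 11.9 and 10.3 CPM to 19.5, 19.7 and 17.3 CPM, a log2 fold change of 0.79 ± 0.07 (SE, adjusted p = 2.60e-11).

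*Asl* rose from 20.4, 22.1 and 18.6 CPM to 28.3, 29.6 and 30.0 CPM in myotubes (log2 fold change 0.52 ± 0.07, SE, adjusted p = 2.41e-07 by edgeR). *Ass1* rose from 58.7, 52.7 and 55.3 CPM to 68.6, 77.5 and 132 CPM (log2 fold change 0.73 ± 0.15, SE, adjusted p = 7.74e-05). The third butyrate library was the highest of these by far. Without it the log2 fold change was 0.40 (adjusted p = 0.00233 by edgeR), and the groups did not overlap with or without it. *Otc* had 0, 3 and 0 counts under butyrate and 0 in the other 6 myotube libraries.

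*Cps1*, which is close to absent from myotube controls with 0, 1 and 3 counts, reached 16, 388 and 58 counts under butyrate, or 0.651, 15.7 and 2.59 CPM. The log2 fold change was 6.61 ± 1.21 (SE, adjusted p = 3.97e-05 by edgeR), and 4.61 without the second butyrate library or 7.82 without the third control library. The hepatocyte protein gene *Alb* followed the same order in these libraries, at 23.5, 432 and 95.3 CPM under butyrate, and was at 0 to 0.0440 CPM in myotube controls. *Cps1* per 100 CPM of *Alb* was 2.77, 3.63 and 2.72 in the 3 myotube libraries and 2.39 to 3.29 in the 9 hepatocyte libraries. Scaling the hepatocyte butyrate level of *Cps1* to the *Alb* of each myotube library gave 0.725, 13.3 and 2.94 CPM. The third βOHB library of myotubes, with 18.4 CPM of *Alb*, was also the one with 18 counts of *Cps1*, against 1 in each of the other two.

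The same calculation gave smaller values for the other genes. In the library with most *Alb*, the hepatocyte level scaled to *Alb* came to 0.523 of 2.51 CPM for *Nags*, 6.56 of 77.5 CPM for *Ass1*, 1.43 of 29.6 CPM for *Asl* and 1.36 of 19.7 CPM for *Slc25a15*. When it was subtracted from every gene of the myotube libraries before the fit, an alternative chosen after seeing these data, 5 of 6 genes were still called against control. For *Cps1* that call (log2 fold change 3.68, adjusted p = 0.0157 by edgeR) came with levels above 0 in the second butyrate library alone: the level less the *Alb*-scaled value was -0.074, 2.37 and -0.34 CPM in the 3 libraries. *Nags* then had a log2 fold change of 5.68, *Slc25a15* of 0.76, *Ass1* of 0.70 and *Asl* of 0.51. Against βOHB the count was 5 with and without the subtraction. The source of the *Alb* counts, and its part in these results, was not tested. Without it 66% of all genes were called against βOHB in myotubes. The macrophage markers of the myotube cultures, 8 measured and none at 0, summed to 123 to 318 CPM in controls, 49.98 to 122.8 under βOHB and 29.0 to 86.5 under butyrate. The 6 myotube markers went from 21300 to 26090 CPM in controls to 13710 to 18770 under butyrate, and the 3 markers of proliferating cells from 29.5 to 64.5 CPM to 11.2 to 16.3 CPM. The 4 cholangiocyte markers went from 36.8 to 38.8 CPM to 56.1 to 73.6 CPM, all 4 with higher means. The 6 adipocyte markers went from 4.84 to 5.68 CPM to 10.9 to 12.1 CPM, with 5 means higher and 0 lower. All 5 fibroblast and all 3 stellate cell markers also had higher means. The part of these in the results was not tested.

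**Figure D4:**
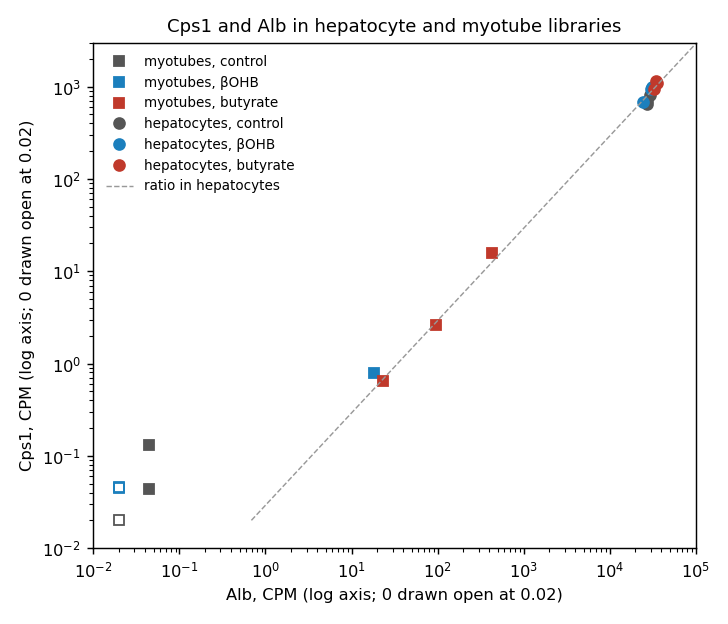
*Cps1* against *Alb* in the 9 hepatocyte (circles) and 9 myotube (squares) libraries, both in CPM on log axes, coloured by treatment; the dashed line is the ratio over the hepatocyte libraries and open symbols have a 0 on at least 1 axis. The 3 butyrate myotube libraries and the third βOHB myotube library lie on or near the hepatocyte line, and the other myotube libraries lie at the lower left.

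βOHB changed 0 of 6 genes in myotubes by edgeR, where 2.91% of all tested genes were called and 2104 genes had an unadjusted p below 0.05, 0 of them urea cycle genes. *Slc25a15* was at 11.1, 12.0 and 12.4 CPM, with an interval of its log2 difference from -0.02 to 0.27, and *Ass1* at 48.4, 59.4 and 55.9 CPM, with -0.33 to 0.28. For *Asl* the interval was -0.07 to 0.23, and *Nags* had 0, 2 and 5 counts under βOHB. In the direct comparison butyrate exceeded βOHB for 5 genes in myotubes (*Cps1* among them), for 3 in adipocytes (*Asl*, *Nags* and *Slc25a15*, where 59.5% of all genes were called) and for 3 in macrophages (*Ass1*, *Nags* and *Slc25a15*, where 64.7% were called). *Asl* in macrophages was the only gene lower under butyrate outside hepatocytes. For *Ass1* in adipocytes, which missed, the interval was -0.26 to 0.44.

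Across cell types, 1 of the 6 genes, *Slc25a15*, was raised by butyrate in all 4, as were 12.5% of all tested genes. *Nags* was lowered in hepatocytes and raised in the 3 others, where it started from 0 to 2 counts per group. The response was tested between each of the 6 pairs of cell types, and 13 of 36 differences were called, against 41.9% over all tested genes and pairs. *Nags* differed between hepatocytes and each other type (adjusted p = 8.14e-07 against macrophages, 1.77e-08 against adipocytes and 6.84e-11 against myotubes, by edgeR). *Slc25a15* rose more in hepatocytes than in adipocytes by 0.39 ± 0.09 on the log2 scale (SE, adjusted p = 0.000529), and its difference between hepatocytes and macrophages was 0.06 with an interval from -0.13 to 0.25.

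*Asl* differed in its response in 5 of the 6 pairs. Its response was larger in adipocytes than in hepatocytes (log2 difference, hepatocytes minus adipocytes, -0.80 ± 0.10, SE, adjusted p = 1.19e-07) and than in macrophages (-0.91 ± 0.10, adjusted p = 3.01e-08). It was also larger in myotubes than in hepatocytes (-0.50 ± 0.10, adjusted p = 8.24e-05) or macrophages (-0.61 ± 0.10, adjusted p = 1.05e-05), all by edgeR. *Ass1* responded more in myotubes than in hepatocytes (adjusted p = 0.0139) or adipocytes (adjusted p = 0.0295), but without the third butyrate library of myotubes these were 0.117 and 0.169 by edgeR. The last *Asl* difference, adipocytes against myotubes (adjusted p = 0.0254), and that of *Ass1* in the same pair were lost without several single libraries (lowest adjusted p without them 0.0504 and 0.0612).

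The control libraries gave the order of the levels in untreated cells. Hepatocytes were highest for all 6 genes. For *Cps1*, *Otc* and *Nags* the filter on low counts fixed this in advance: they were above 1 CPM in 2, 0 and 5 libraries outside hepatocytes, fewer than the 6 it required, and so passed only through the hepatocyte libraries. Their levels are given as a description. *Cps1* was at 722 ± 78.0 CPM in hepatocytes (SD, n = 3) and at 0.0587 or less in the 3 other types, between which no difference passed the test. *Otc* was at 14.6 ± 0.6 CPM and had 0 counts in all 9 other control libraries, and *Nags* was at 62.2 ± 1.3 CPM and had at most 2 counts in any other control group.

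The other 3 genes passed the filter without the hepatocyte libraries as well. *Ass1* went from 478 ± 17.9 CPM in hepatocytes to 55.6 ± 3.0 in myotubes, 30.3 ± 1.8 in macrophages and 18.2 ± 1.3 in adipocytes, and all neighbours differed. *Asl* went from 112 ± 3.5 in hepatocytes to 36.3 ± 2.0 in macrophages, 20.4 ± 1.7 in myotubes and 14.0 ± 0.4 in adipocytes, and *Slc25a15* from 55.9 ± 0.9 in hepatocytes to 15.5 ± 0.6 in adipocytes, 10.8 ± 0.9 in myotubes and 9.46 ± 0.4 in macrophages, again with all neighbours different. Over the 6 pairs of cell types 27 of 36 control differences were called, against 81.3% over all tested genes. Of these 27, 9 set hepatocytes against another type for the 3 genes that passed only through hepatocytes, and the other 18 were all 18 pairs of *Ass1*, *Asl* and *Slc25a15*.

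**Figure D5:**
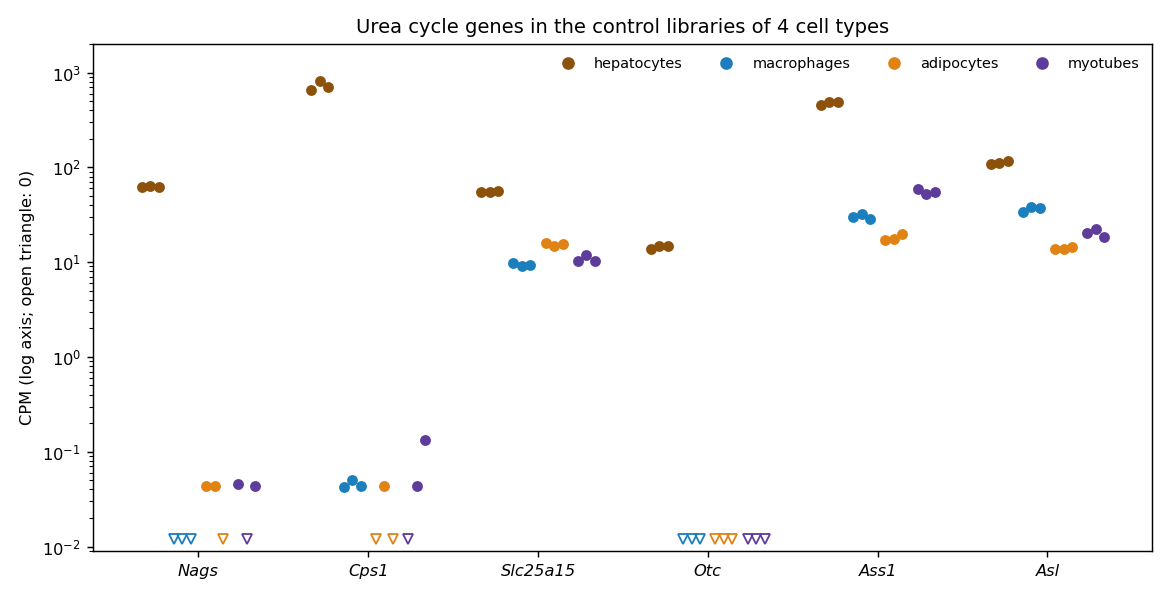
CPM of the 6 genes (log axis) in each of the 12 control libraries, coloured by cell type; open triangles at the bottom are libraries with 0 counts. Hepatocyte libraries are highest for all 6 genes, and *Nags*, *Cps1* and *Otc* are at or near 0 outside hepatocytes.

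Per kb of exon union, the control hepatocyte level was highest for *Ass1*, at 198 ± 7.4 CPM per kb (SD, n = 3), then *Cps1* at 130 ± 14.1, *Asl* at 23.2 ± 0.7 and *Nags* at 21.9 ± 0.5. *Slc25a15* stood at 9.93 ± 0.2 and *Otc* at 3.44 ± 0.1 CPM per kb. With the longest transcript in place of the exon union the order of the 6 genes was the same, and *Asl* and *Nags* stood at 46.4 and 22.9 CPM per kb. *Otc*, an enzyme of the cycle proper, was thus at a lower level per length than the carrier *Slc25a15* and the activator-making *Nags*. In macrophages the order of the level per kb was *Ass1* at 12.6, *Asl* at 7.51 and *Slc25a15* at 1.68, with *Cps1* at 0.00816 and the other genes at 0.

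The genes whose levels ran most like those of each urea cycle gene over the 12 group means of log2 CPM were found by Pearson correlation. They included *Hsd17b13* and *Ugt2b34* for *Cps1* (r = 0.999 for both), *Pdzk1*, *Golt1a* and *Cyp2c67* for *Otc*, and *Cdh1*, *Sec14l2* and *Chmp4c* for *Ass1*. They were *Psd3*, *Herc4* and *Proz* for *Asl*, *Cldn3*, *Onecut1* and *Etnk2* for *Nags*, and *Gcdh*, *Mad2l2* and *Nadk2* for *Slc25a15*. The 12 points share the gap between hepatocytes and other cells, and with Spearman correlation only *Herc4* was again among the top 3. Among the 9 hepatocyte libraries *Nags* and *Otc* ran together (r = 0.96) and both against *Slc25a15* (r = -0.95 and -0.94), a description in which the 3 butyrate libraries set the pattern.

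The genes around the cycle changed in both directions in hepatocytes under butyrate. Of 17 tested partner transporters and nitrogen-supplying enzymes 6 rose and 5 fell, with a median log2 fold change of 0.08. Over all tested genes 31% rose and 32.4% fell in this comparison, with a median of -0.01. *Got1*, the cytosolic aspartate aminotransferase that interconverts aspartate and oxaloacetate, rose most, from 123 ± 3.7 to 328 ± 1.5 CPM (SD, n = 3; log2 fold change 1.42 ± 0.09, SE, adjusted p = 4.45e-15 by edgeR). *Slc7a7*, a subunit of a cationic amino acid exporter, fell most, from 9.37 ± 1.0 to 3.04 ± 0.5 CPM (-1.63 ± 0.15, adjusted p = 1.05e-10). Of 19 genes of arginine, ornithine and polyamine use 9 rose and 3 fell, with a median of 0.34. *Azin2*, an antizyme inhibitor, rose from 1.63 ± 0.4 to 27.4 ± 2.7 CPM (4.07 ± 0.16, adjusted p = 2.33e-19), and *Nos3*, the endothelial nitric oxide synthase, fell from 1.91 ± 0.2 to 0.542 ± 0.1 CPM (-1.82 ± 0.36, adjusted p = 5.03e-05). The endothelial markers fell in the same libraries, as given above.

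Liver enzymes of amino acid breakdown, which release the nitrogen that the cycle takes up, rose in 11 of 19 cases and fell in 2, with a median log2 fold change of 0.40 against -0.01 over all tested genes, of which 31% rose and 32.4% fell. *Tat*, the tyrosine aminotransferase, had the largest rise, from 126 ± 6.3 to 388 ± 13.2 CPM (log2 fold change 1.63 ± 0.26, SE, adjusted p = 3.56e-05 by edgeR), and *Hgd*, a later enzyme of tyrosine breakdown, fell most, from 53.0 ± 3.3 to 26.7 ± 1.0 CPM (-0.99 ± 0.14, adjusted p = 2.29e-06). Of 14 regulators of urea cycle genes 4 rose and 7 fell, with a median of -0.23 beside the same background. *Ppargc1a*, a coactivator of fasting metabolism, rose from 4.62 ± 0.05 to 34.8 ± 2.6 CPM (2.91 ± 0.16, adjusted p = 2.66e-16), and *Stat6*, which carries interleukin 4 signals, fell from 174 ± 18.3 to 38.0 ± 2.3 CPM (-2.19 ± 0.08, adjusted p = 4.09e-20). Under βOHB 0 genes of these lists, the zonal and activation lists included, were called in hepatocytes, macrophages or adipocytes by edgeR. In myotubes 4 were called, all lower (*Hal*, *Cebpa*, *Mrc1* and *Tnf*, named after their values were seen), where 2.91% of all tested genes were called. They were 1 of 19 liver enzymes (*Hal*, also 1 of 6 periportal genes), 1 of 14 regulators and 2 of 7 tested activation genes. The summed macrophage markers had means of 230.8 CPM in myotube controls and 80.33 under βOHB, and their part was not tested.

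Zonal genes changed in both directions. Of 6 periportal genes, the zone where urea synthesis is highest in liver, 3 rose and 2 fell under butyrate, where 31% of all tested genes rose and 32.4% fell. *Sds*, serine dehydratase, rose from 8.66 ± 1.3 to 17.1 ± 0.6 CPM (log2 fold change 0.98 ± 0.20, SE, adjusted p = 0.000110 by edgeR), and *Pck1*, the gluconeogenic carboxykinase, fell from 84.4 ± 2.4 to 33.1 ± 5.3 CPM (-1.35 ± 0.21, adjusted p = 2.88e-06). Of 6 tested pericentral genes 2 rose and 1 fell. *Glul*, the glutamine synthetase that takes up ammonia around the central vein, rose from 144 ± 2.4 to 262 ± 6.9 CPM (0.87 ± 0.06, adjusted p = 2.88e-13), and *Cyp1a2* fell from 20.0 ± 3.7 to 11.3 ± 0.9 CPM (-0.82 ± 0.20, adjusted p = 0.00215).

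Outside hepatocytes the same lists were counted under butyrate, and a part of these counts follows. In macrophages 11 of 19 genes of arginine, ornithine and polyamine use rose and 2 fell, with a median log2 fold change of 0.48 against 0 over all tested genes, of which 31.9% rose and 33.2% fell. *Azin2* rose there too, from 4.83 to 30.2 CPM (adjusted p = 2.15e-17 by edgeR). In adipocytes 8 rose and 3 fell, where 30.7% and 30.3% of all tested genes did, with a median of 0.31. In myotubes 8 rose and 3 fell, with a median of -0.02, where 33.1% of all tested genes rose and 33.4% fell. Of 19 liver enzymes of amino acid breakdown 5 rose and 0 fell in macrophages, and 4 rose and 0 fell in adipocytes. In myotubes 17 of the 19 were called higher and 1 lower, against 33.1% and 33.4% of all tested genes, with a median of 3.99 against 0. These were the same libraries that held *Alb*, and *Tat* was at 0 in myotube controls and at a mean of 1.67 CPM under butyrate. Of 14 regulators 10 rose and 1 fell there (median 1.295), and of 6 periportal genes 5 rose and 1 fell (median 2.32). The counts of these liver genes therefore stand beside the hepatocyte marker values given for *Cps1*.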

How the data were processed

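RNA-seq libraries of 36 samples (12 groups of 3) were analysed. The table the authors deposited holds estimated counts per gene, made with Salmon 1.2.1 against mouse transcripts of GRCm38 and summed to genes with tximport; the methods state scaling by transcript length and library size, but library totals differed and 55.6% of values above 0 were whole. Estimated counts share ambiguous reads between similar transcripts, and strand is not given in the sources used here. Counts were rounded. Genes with CPM above 1 in at least 6 libraries (15340 of 54347) were scaled by TMM and fitted over all 36 libraries with the quasi-likelihood test of edgeR 4.0.16 (R 4.3.3), with Benjamini-Hochberg adjustment per comparison and calls at an adjusted p below 0.05. The model shared 1 estimate of the spread between cell types. SE was derived from the F statistic, and intervals are 95%. On simulated hepatocyte data of 15340 genes, of which 200 were changed, 93% of 2-fold and 65% of 1.41-fold changes were recovered, with 17 false calls. In the real comparison 63.5% of genes were called, so these rates need not hold there. A group with 3 or fewer counts in all was given a bound or a count ratio. Counting intervals cover counting error only.

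The 6 genes and the gene lists were chosen with earlier results of these data known, and some items that the same rules take in are not reported here. All 6 genes are named for each treatment against control in each cell type and, of each list, the called genes with the largest rise and fall in hepatocytes under butyrate (in macrophages for the activation list), with 4 arginine transporters and enzymes in macrophages whatever their values. Groups follow the treatment label, since another label of the butyrate samples carries the abbreviation bOHB in brackets. Of the sample columns, 0 were left unmapped. Replicates differed by more than sampling noise in all 36 pairs (chi-square per degree of freedom 2.676 or more). Symbols and gene models came from a GENCODE annotation of GRCm38 that may differ from the release the authors used, and matched 54094 of the IDs. Promoters came from RefSeq (GRCm38.p6), which matched 4 of the 6 genes. Alternatives were limma-voom (limma 3.58.1), DESeq2 1.42.0, other scalings and filters, fewer libraries and a replicate block.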

Additional observations from a re-analysis of the deposited data

Results flagged for a closer look

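The response to butyrate differed between 2 cell types, by the interaction test of edgeR with Benjamini-Hochberg adjustment, in 13 of 36 combinations of gene and pair. Groups of 3 libraries were not tested for outlying samples. Log2 differences below are the response of the first cell type minus that of the second, ± SE.

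*Nags* fell in hepatocytes and rose elsewhere, which gave adjusted p-values of 8.137e-07 for hepatocytes against macrophages, 1.773e-08 against adipocytes and 6.841e-11 against myotubes. Its control groups outside hepatocytes held at most 2 counts, so no size is given for these differences. *Asl* differed between hepatocytes and adipocytes (-0.80 ± 0.10, adjusted p = 1.185e-07), hepatocytes and myotubes (-0.50 ± 0.10, adjusted p = 8.244e-05), macrophages and adipocytes (-0.91 ± 0.10, adjusted p = 3.009e-08), macrophages and myotubes (-0.61 ± 0.10, adjusted p = 1.052e-05) and adipocytes and myotubes (0.30 ± 0.11, adjusted p = 0.0254). The last was lost under 9 of 22 alternatives, with adjusted p-values up to 0.09596.

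*Slc25a15* rose less in adipocytes than in hepatocytes (0.39 ± 0.09, adjusted p = 0.0005294) and than in macrophages (0.34 ± 0.10, adjusted p = 0.00646). The latter was lost without the filter on low counts (adjusted p = 0.05453) and at an unadjusted P below 0.001. *Ass1* differed between hepatocytes and myotubes (-0.61 ± 0.21, adjusted p = 0.01394) and between adipocytes and myotubes (-0.63 ± 0.23, adjusted p = 0.02946), and both were lost without the third butyrate library of myotubes. They were lost under 2 and 7 of 22 alternatives, respectively. *Cps1* differed between hepatocytes and myotubes (-6.06 ± 1.39, adjusted p = 0.0007842). With the hepatocyte level scaled to *Alb* subtracted from the myotube libraries, that difference was -3.13 (adjusted p = 0.0646). The other 8 of the 13 differences stayed called under each alternative.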

How the results depend on the processing

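Of 1872 repeats of a single gene's comparison under another setting, 1808 kept their side of the threshold. The sign changed in 59 of these, all differences called under neither setting, and held in 1749. A call was lost in 33, gained in 30 and turned in 1: *Asl*, butyrate against βOHB in macrophages, was 0.05209 when scaled by library totals alone (adjusted p = 0.525 by edgeR). The cause was not tested. An unadjusted P below 0.001 in place of the adjusted p, a stricter limit, left 2 genes called for butyrate against βOHB in macrophages. A model of the hepatocyte libraries alone called 5 against βOHB in hepatocytes (*Cps1* and *Ass1* gained), and its share over all genes is not given. Leaving out single libraries gave 2 to 3 called genes in hepatocytes, 3 to 4 in macrophages, 3 to 3 in adipocytes and 5 to 6 in myotubes for butyrate against control. Against βOHB it gave 3 to 3, 3 to 4, 3 to 3 and 5 to 6, for βOHB against control 0 to 0 in all 4, for differences between cell types 11 to 15 and for control levels 26 to 27. Correlations of same-numbered libraries ran from -0.264 to 0.273 and exceeded 0.1 in 4 of 36 cases, so the numbers were not taken as pairs. In adipocytes 8 of 9 were positive, 2 of them above 0.1, and 7 of 9 libraries correlated best with their own number, a hint from the data. In hepatocytes, macrophages and myotubes 1, 3 and 2 of 9 did. With a replicate block 4 genes were called in hepatocytes (*Cps1* gained, adjusted p = 0.0132 by edgeR), 3 in macrophages, 3 in adipocytes and 5 in myotubes, and no other call against control changed. Library totals alone moved 24 of 72 group levels by more than 1 SD. Genes at 0 to 3 counts per group allow only bounds at this depth.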
